A study of Arabidopsis thaliana with 36 samples.

Results

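The nuclear genes of Arabidopsis thaliana that encode the photosynthetic light reactions and Rubisco were followed in leaves and roots of the opt3-2 mutant and of Columbia-0. They comprise 50 of the 28775 genes in the count table and were chosen by gene identifier: 4 photosystem I antenna genes (LHCA), 14 photosystem II antenna genes (LHCB), 12 photosystem I subunits (PSA), 10 photosystem II subunits (PSB), 5 genes of electron transfer (PETC, PETE1, PETE2, FNR1 and FNR2) and 5 genes of Rubisco (4 RBCS genes and RCA). No measured value entered that choice, although earlier results of these data were known when it was made. All 50 passed the filter on low counts, which kept 21692 genes.

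The groups were opt3-2 leaf, Columbia-0 leaf, opt3-2 root and Columbia-0 root, with 3 biological replicates each. opt3-2 carries an altered OPT3, which encodes a transporter of the oligopeptide transporter family needed to load iron into the phloem, and Columbia-0 is the unmutated accession. All plants spent 11 days on agar plates and 22 days in aerated hydroponics under 16 h of light per day. Each RNA came from 3 to 4 plants ground together. A characteristic of every sample gives the medium as replete, while the treatment text of every sample speaks of 20 µM CdCl2 for 72 h. Both genotypes carry both texts, and which of them holds was not settled. The labels give no plant age beyond these days, no leaf position and no statement that replicates were grown apart, so a p-value reflects only how far these pools differ.

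Light is gathered by chlorophyll-binding antenna proteins, LHCA around photosystem I and LHCB around photosystem II, and passed to the reaction centres. Photosystem II splits water with the help of the lumenal PsbO, PsbP and PsbQ proteins, electrons travel through the cytochrome b6f complex and plastocyanin to photosystem I, and ferredoxin-NADP reductase makes the NADPH that Rubisco and the Calvin cycle use. The reaction-centre proteins are made in the plastid, whereas the antenna, many small subunits and the small subunit of Rubisco are made from nuclear genes such as those described here. Photosystem I, cytochrome b6f and ferredoxin hold iron, and leaf chloroplasts are a main destination of the iron a plant takes up. These genes are active in green cells and weakly active in roots.

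The 12 replicates held 23981444 to 37685493 counted reads. Values below are CPM, a gene's reads scaled to a common library size with TMM factors, and changes are log2 fold changes ± SE from edgeR's quasi-likelihood F test with Benjamini-Hochberg adjustment over all genes tested. A gene was called where the adjusted p was under 0.05. OPT3 itself had 18.8, 21.0 and 18.4 CPM in opt3-2 leaves, against 128, 97.8 and 80.7 CPM in Columbia-0 leaves (log2 -2.40 ± 0.16, adjusted p = 2.66e-06). In roots it had 6.47, 5.49 and 4.94 CPM in opt3-2, against 7.70, 6.64 and 8.20 CPM in Columbia-0, which did not pass (log2 -0.41 ± 0.17, adjusted p = 0.125). All 8 leaf cell markers and all 8 root cell markers were called between the organs in the labelled direction in both genotypes.

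The 50 genes took 15.7 to 16.2% of all reads in opt3-2 leaves and 17.9 to 18.6% in Columbia-0 leaves. In roots they took 0.0710 to 0.146% in opt3-2 and 0.0729 to 0.104% in Columbia-0. Per kilobase of exon, LHCB1.3, a gene of the major light-harvesting trimer, was the most abundant member in Columbia-0 leaves at 17930 CPM per kilobase, followed by LHCB1.5 at 11160, Rubisco activase RCA at 9177, LHCA4 at 8741 and RBCS1A at 7207 CPM per kilobase. LHCB4.3, which encodes an isoform of the minor antenna protein CP29, was the least abundant, at 11.7 CPM per kilobase.

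LHCB4.3 was also the only one of the 50 called higher in opt3-2 leaves, so its sequence is given beside those of LHCB4.1 and LHCB4.2, its closest relatives. The stretches below are aligned 60-base pieces of the coding sequences in the RefSeq annotation of TAIR10.1, 5′ to 3′, and capitals mark bases that differ from LHCB4.3.
LHCB4.3: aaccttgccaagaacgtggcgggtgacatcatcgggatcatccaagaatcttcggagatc
LHCB4.1: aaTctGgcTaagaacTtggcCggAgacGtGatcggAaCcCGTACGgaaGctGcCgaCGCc
LHCB4.2: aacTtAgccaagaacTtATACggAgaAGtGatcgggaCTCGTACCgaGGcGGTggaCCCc
Over this stretch LHCB4.1 differed from LHCB4.3 at 22 bases and LHCB4.2 at 27. Over the aligned coding sequence LHCB4.3 shared 70.2% of bases with LHCB4.1 and 70.9% with LHCB4.2, against 81.9% between LHCB4.1 and LHCB4.2. No 50-base window of the exons of LHCB4.3 occurred in LHCB4.1 or LHCB4.2, so an exact match of that length tells it from both. How reads with mismatches were assigned was not tested.

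The 250 bases upstream of the annotated starts of the LHCB4 genes and of LHCB2.3, the gene with the next smallest adjusted p in leaves, were read from TAIR10.1. Each lies on the + strand and is printed 5′ to 3′. Capitals mark 2 motifs known from light-regulated plant promoters, the I-box GATAAG and the G-box CACGTG, searched on both strands.
LHCB4.3, chr2:16745378-16745627: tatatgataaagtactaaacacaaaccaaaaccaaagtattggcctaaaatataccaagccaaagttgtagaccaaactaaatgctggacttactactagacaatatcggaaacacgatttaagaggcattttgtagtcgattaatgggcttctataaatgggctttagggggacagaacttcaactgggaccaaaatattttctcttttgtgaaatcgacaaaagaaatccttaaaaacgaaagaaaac
LHCB4.1, chr5:208616-208865: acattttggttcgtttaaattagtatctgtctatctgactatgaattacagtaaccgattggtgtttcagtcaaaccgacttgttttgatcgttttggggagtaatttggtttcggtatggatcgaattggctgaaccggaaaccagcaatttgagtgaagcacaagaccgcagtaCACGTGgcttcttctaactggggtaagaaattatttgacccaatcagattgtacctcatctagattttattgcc
LHCB4.2, chr3:2717307-2717556: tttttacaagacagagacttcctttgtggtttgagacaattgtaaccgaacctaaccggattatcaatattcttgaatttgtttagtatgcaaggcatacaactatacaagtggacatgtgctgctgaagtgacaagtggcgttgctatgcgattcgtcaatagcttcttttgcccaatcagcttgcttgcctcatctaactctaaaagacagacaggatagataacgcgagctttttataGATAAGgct
LHCB2.3, chr3:10255656-10255905: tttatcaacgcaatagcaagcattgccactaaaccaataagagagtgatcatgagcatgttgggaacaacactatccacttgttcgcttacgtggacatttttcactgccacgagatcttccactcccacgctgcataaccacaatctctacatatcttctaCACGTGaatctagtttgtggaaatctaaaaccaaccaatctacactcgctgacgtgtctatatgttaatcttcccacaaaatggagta
The window of LHCB4.3 held neither motif, that of LHCB4.1 held a G-box, that of LHCB4.2 an I-box and that of LHCB2.3 a G-box. LHCB1.4 and LHCB1.2, which like LHCB2.3 were called lower in opt3-2 leaves, held neither motif in their windows. Of the 14 photosystem II antenna genes, 3 held an I-box and 3 a G-box, so the lack of both was not particular to LHCB4.3. Among all 50 members, 14 windows (28%) held an I-box, against 12.3% of 27443 annotated genes. A G-box stood in 9 member windows (18%), against 6.49% of all genes. A TATAAA was in 22 (44%), against 47.4%. The motifs are matches of letters only.

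In leaves, most of the photosynthetic genes lay slightly lower in opt3-2, while few passed the test. Of the 50, 1 was called higher (15.4% of all tested genes were) and 3 were called lower (12.6% of all tested genes were). The other 46 did not pass. Of all 50, 5 had an unadjusted p under 0.05 (38.6% of all tested genes had). Fold changes were negative for 47 and positive for 3, with a median of -0.19, against 0 over all genes tested. The 4 called genes all encode antenna proteins of photosystem II.

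LHCB4.3 (AT2G40100) had 43.7, 41.5 and 39.0 CPM in opt3-2 leaves, against 23.5, 11.4 and 15.8 CPM in Columbia-0 leaves. Every opt3-2 replicate stood above every Columbia-0 replicate, and the gene rose 2.46-fold (log2 1.297 ± 0.206, adjusted p = 8.3e-04). These levels rest on 1238 to 1423 reads per opt3-2 library and 256 to 467 reads per Columbia-0 library. LHCB4.1 (AT5G01530) had 3092, 3172 and 3017 CPM in opt3-2 leaves, against 3303, 3362 and 2988 CPM in Columbia-0 leaves, and the groups overlapped (log2 -0.06 ± 0.15, adjusted p = 0.820). LHCB4.2 (AT3G08940) had 3243, 3222 and 3116 CPM in opt3-2 leaves, against 3722, 3965 and 3720 CPM in Columbia-0 leaves. Its groups did not overlap, but the change did not pass (log2 -0.25 ± 0.19, adjusted p = 0.354). LHCB4.3 thus made up 0.654 ± 0.028% of the reads of the 3 LHCB4 genes in opt3-2 leaves and 0.241 ± 0.089% in Columbia-0 leaves (SD, n = 3 each).

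LHCB2.3 (AT3G27690) encodes a subunit of the major light-harvesting complex that takes part in state transitions. It had 1479, 1462 and 1364 CPM in opt3-2 leaves, against 2133, 2249 and 2040 CPM in Columbia-0 leaves, and the groups did not overlap (log2 -0.58 ± 0.14, adjusted p = 0.00925). LHCB2.1 and LHCB2.2, its relatives, had fold changes of -0.28 and -0.32 and did not pass (adjusted p = 0.560 and 0.446). LHCB2.1 ranged from 4751 to 4967 CPM in opt3-2 leaves and from 5721 to 6251 CPM in Columbia-0 leaves. LHCB2.2 ranged from 4179 to 4450 CPM in opt3-2 leaves and from 5181 to 5711 CPM in Columbia-0 leaves. All 3 LHCB2 genes therefore had every opt3-2 leaf replicate below every Columbia-0 leaf replicate.

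LHCB1.4 and LHCB1.2 encode the most abundant kind of subunit in the light-harvesting trimer. LHCB1.4 (AT2G34430) had 2520, 2589 and 2554 CPM in opt3-2 leaves, against 3530, 4457 and 4275 CPM in Columbia-0 leaves (log2 -0.68 ± 0.17, adjusted p = 0.0110). LHCB1.2 (AT1G29910) had 4225, 4191 and 4099 CPM in opt3-2 leaves, against 5947, 5543 and 5446 CPM in Columbia-0 leaves (log2 -0.44 ± 0.14, adjusted p = 0.0336). Neither gene's groups overlapped. LHCB1.2 lost its call when any of the opt3-2 leaf replicates 1, 2 or 3 or the Columbia-0 leaf replicates 1 or 2 was left out (adjusted p = 0.0632 to 0.0885). LHCB1.1, LHCB1.3 and LHCB1.5 had fold changes of -0.23, -0.39 and -0.24, and none of them passed.

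The 5 LHCB1 genes are near copies, which limits how far their counts can be told apart. LHCB1.2 (chr1:10472280-10473502), LHCB1.1 (chr1:10474656-10475969) and LHCB1.3 (chr1:10477885-10479114) lie side by side, as do LHCB1.5 (chr2:14522524-14523568) and LHCB1.4 (chr2:14524607-14525918), in TAIR10.1 coordinates. Aligned 60-base coding stretches are given 5′ to 3′, with capitals for bases that differ from LHCB1.3.
LHCB1.3: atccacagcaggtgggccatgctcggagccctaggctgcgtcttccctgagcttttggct
LHCB1.1: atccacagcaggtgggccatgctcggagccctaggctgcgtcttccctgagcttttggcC
LHCB1.2: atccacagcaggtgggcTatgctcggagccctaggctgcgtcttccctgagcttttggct
LHCB1.4: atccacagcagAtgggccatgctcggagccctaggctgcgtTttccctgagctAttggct
LHCB1.5: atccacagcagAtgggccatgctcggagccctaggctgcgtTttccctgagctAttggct
LHCB1.1, LHCB1.2 and LHCB1.3 shared 95.7 to 96.4% of coding bases. Of all 50-base exon windows, 10.7% in LHCB1.2 and 13.7% in LHCB1.4 occurred in another LHCB1 gene, and the share reached 20.5% in LHCB1.1. The sources used here do not give how the counting assigned such reads, so the values of single LHCB1 genes are uncertain. LHCB2.3 shared no such window with its relatives, whereas LHCB2.1 and LHCB2.2 had 22.7% and 28.2% of theirs in common with a relative.

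**Figure D1:**
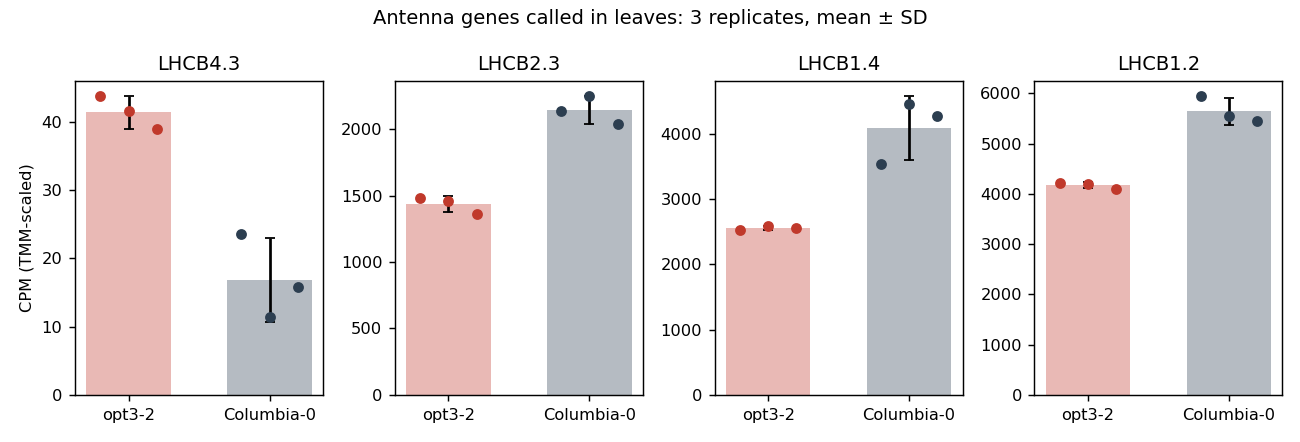
CPM in leaves of the 4 antenna genes called there, with opt3-2 left of Columbia-0 in each panel, a point for each of 3 replicates, bars for the mean and error bars for the SD. LHCB4.3 stood above Columbia-0 in every opt3-2 replicate, and LHCB2.3, LHCB1.4 and LHCB1.2 stood below it, at levels that were far above that of LHCB4.3.

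The remaining photosystem II antenna genes are LHCB3, a further subunit of the trimer, LHCB5 (CP26) and LHCB6 (CP24), both monomeric linkers to the core. LHCB3 ranged from 6720 to 6926 CPM in opt3-2 leaves and from 7990 to 8383 CPM in Columbia-0 leaves. LHCB5 ranged from 6652 to 6941 CPM in opt3-2 leaves and from 8065 to 8160 CPM in Columbia-0 leaves. LHCB6 ranged from 2957 to 3126 CPM in opt3-2 leaves and from 3473 to 3961 CPM in Columbia-0 leaves. None of the 3 overlapped, and none passed (log2 -0.27, -0.25 and -0.30, adjusted p = 0.542, 0.465 and 0.243). Summed over its 14 genes, the photosystem II antenna reached 74657, 74479 and 72425 CPM in opt3-2 leaves, against 90764, 94701 and 90639 CPM in Columbia-0 leaves, a ratio of 0.803. That was the lowest ratio among the 6 gene groups.

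None of the photosystem I antenna genes was called. LHCA4 (AT3G47470), the most abundant of them, had 9519, 9476 and 9481 CPM in opt3-2 leaves, against 11400, 11650 and 10920 CPM in Columbia-0 leaves, without overlap (log2 -0.25 ± 0.19, adjusted p = 0.344). LHCA1 (AT3G54890), its partner in a dimer, had 5647, 5582 and 5601 CPM in opt3-2 leaves, against 6897, 6926 and 6918 CPM in Columbia-0 leaves, also without overlap (log2 -0.30 ± 0.18, adjusted p = 0.237). Fold changes of LHCA2 and LHCA3, which form the other dimer, were -0.05 and -0.16. Summed, the 4 genes reached 25765 ± 150 CPM in opt3-2 leaves and 29757 ± 806 CPM in Columbia-0 leaves (SD, n = 3 each), a ratio of 0.866.

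Among photosystem I subunits, 0 of 12 were called in leaves, and all 12 fold changes were negative, between -0.29 (PSAE1, a stromal subunit near the ferredoxin docking site) and -0.07 (PSAH1). PSAN (AT5G64040), a lumenal subunit that helps dock plastocyanin, had 1825, 1877 and 1860 CPM in opt3-2 leaves, against 2248, 2201 and 1986 CPM in Columbia-0 leaves. Its groups did not overlap, and it did not pass (log2 -0.21 ± 0.13, adjusted p = 0.247). The sum over the 12 genes gave a ratio of 0.881. Among photosystem II subunits, 0 of 10 were called, with fold changes between -0.23 (PSBQ2) and -0.05 (PSBR). PSBO1 (AT5G66570), the main manganese-stabilising protein of the water-splitting site, had 5335, 5514 and 5186 CPM in opt3-2 leaves, against 6228, 6123 and 5849 CPM in Columbia-0 leaves, without overlap (log2 -0.18 ± 0.18, adjusted p = 0.496). PSBS, which mediates energy-dependent quenching, had a fold change of -0.14 (adjusted p = 0.589), and its groups overlapped. The sum over the 10 genes gave a ratio of 0.906.

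In electron transfer, PETE2 (AT1G20340) stood nearest to the threshold. It encodes the major plastocyanin, the copper protein that carries electrons to photosystem I, and had 2428, 2374 and 2354 CPM in opt3-2 leaves, against 3410, 3383 and 2650 CPM in Columbia-0 leaves. The groups did not overlap, and the change missed the threshold (log2 -0.40 ± 0.15, adjusted p = 0.0694). DESeq2 and limma voom did call it (adjusted p = 0.0132 and 0.037). PETE1, the minor plastocyanin, overlapped between genotypes at 220, 219 and 203 CPM in opt3-2 leaves, against 203, 243 and 206 CPM in Columbia-0 leaves. PETC (AT4G03280), the Rieske iron-sulfur protein of cytochrome b6f, had a fold change of -0.08, and the ferredoxin-NADP reductases FNR1 and FNR2 had -0.01 and 0.06. FNR2 (AT1G20020) was, beside LHCB4.3, the other gene with every opt3-2 leaf replicate above every Columbia-0 leaf replicate, at 525, 514 and 511 CPM in opt3-2, against 491, 502 and 498 CPM in Columbia-0. FNR2 did not pass (adjusted p = 0.869).

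Of the 5 Rubisco genes none was called in leaves. RCA (AT2G39730), the activase that frees Rubisco of bound sugar phosphates, had 16700, 16720 and 15420 CPM in opt3-2 leaves, against 20830, 19490 and 17520 CPM in Columbia-0 leaves, without overlap (log2 -0.24 ± 0.15, adjusted p = 0.242). The small subunit genes overlapped between genotypes. RBCS1A (AT1G67090), the most abundant of them, had 9145, 9345 and 8313 CPM in opt3-2 leaves, against 10160, 9495 and 7757 CPM in Columbia-0 leaves (log2 -0.03 ± 0.27, adjusted p = 0.950). RBCS3B had the highest fold change of the group, at 0.06 (adjusted p = 0.868).

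**Figure D2:**
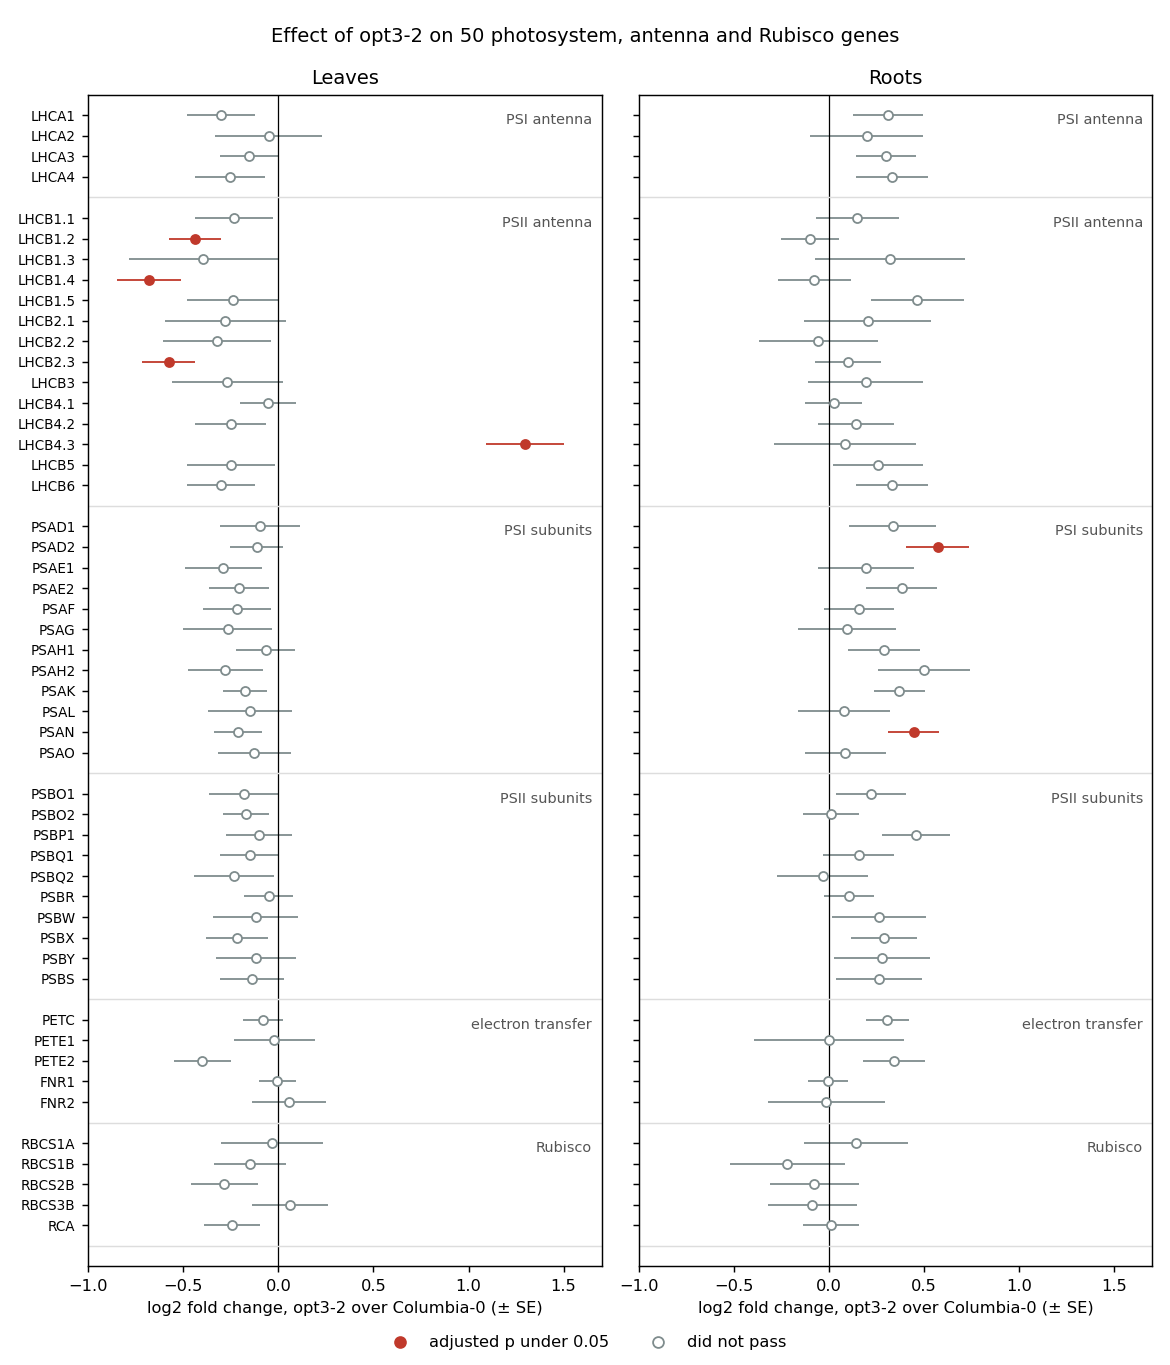
Log2 fold change ± SE of each of the 50 genes, opt3-2 over Columbia-0, in leaves (left panel) and roots (right panel), ordered by complex. Filled red points passed the test: LHCB4.3 higher and LHCB1.2, LHCB1.4 and LHCB2.3 lower in opt3-2 leaves, PSAD2 and PSAN higher in opt3-2 roots.

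The small number of calls sat beside a small spread among leaf replicates. All 3 opt3-2 leaf replicates lay below all 3 Columbia-0 leaf replicates for 31 of the 50 genes (23.9% of all tested genes did), and above them for 2 (26.0% of all tested genes did), while 17 overlapped. The 31 were 12 of 14 photosystem II antenna genes, 3 of 4 photosystem I antenna genes, 9 of 12 photosystem I subunits, 5 of 10 photosystem II subunits, PETE2 of electron transfer and RCA of the Rubisco group. The median coefficient of variation of the 50 genes was 2.27% in opt3-2 leaves and 5.41% in Columbia-0 leaves, against 31.5% in opt3-2 roots and 18.0% in Columbia-0 roots, and the model estimates 1 spread per gene over all 4 groups. Fitted to the leaf libraries alone, the same test called 28 of the 50 lower (19.5% of 19951 tested genes were) and LHCB4.3 higher (19.1% were). The 28 were 12 photosystem II antenna genes, 3 photosystem I antenna genes, 7 photosystem I subunits, 4 photosystem II subunits, PETE2 and RCA. In that fit LHCA1 had -0.31 ± 0.05 (adjusted p = 0.00148), LHCB1.3 -0.41 ± 0.06 (adjusted p = 8.57e-04) and PSAE1 -0.30 ± 0.07 (adjusted p = 0.00927), whereas RBCS1A had -0.05 ± 0.10 (adjusted p = 0.750).

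Over all 50 genes the summed level was 185140 ± 3545 CPM in opt3-2 leaves and 217400 ± 9231 CPM in Columbia-0 leaves (SD, n = 3 each), a ratio of 0.852, and the 3 replicates of each genotype did not overlap. A scaling computed without the 50 genes called the same 4 in leaves. In whole-leaf RNA, fewer green cells and less of these RNAs per cell cannot be told apart. The 8 leaf cell markers summed to 4690 to 5139 CPM in opt3-2 leaves and 4276 to 5699 CPM in Columbia-0 leaves, and 2 of the 8 were called lower in opt3-2. These were KAT1, a guard cell potassium channel (log2 -1.05, adjusted p = 1.69e-04), and EPFL9, a peptide that promotes stomata (log2 -0.52, adjusted p = 0.0442). The EPFL9 call was lost under 11 alternatives, among them leaving out any of opt3-2 leaf replicates 1 to 3 or Columbia-0 leaf replicate 1 or 2 (adjusted p = 0.0592 to 0.145) and the last run of each replicate alone (log2 -0.286, adjusted p = 0.360). The part of cell composition in the leaf result was not tested. The 8 root cell markers summed to at most 1.79 CPM in any leaf library.

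Few other genes of photosynthesis were called in leaves by the main test, where 15.4% of all tested genes were called higher and 12.6% lower. Over all lists in this paragraph, DESeq2 and limma voom called more genes lower than the main test did, as counted in the closing section. Calls in these lists by the fit to leaves alone were not counted. In the main test none of 16 Calvin cycle genes (median log2 -0.17) and none of 5 genes of the plastid ATP synthase and cyclic electron flow (median -0.18) was called. Of 6 relatives of the antenna and photosystem genes, LHCA6 was called lower. LHCA6 belongs to the linkers between photosystem I and the NDH complex and had 92.1, 89.7 and 79.0 CPM in opt3-2 leaves, against 129, 126 and 101 CPM in Columbia-0 leaves, without overlap (log2 -0.45 ± 0.13, adjusted p = 0.0262). That call was lost without opt3-2 leaf replicate 2 or 3 or Columbia-0 leaf replicate 1 or 2 (adjusted p = 0.0510 to 0.0910). Of the 2 GLK transcription factors, activators of nuclear photosynthesis genes, GLK2 was called lower and GLK1 was not. GLK2 had 238, 239 and 234 CPM in opt3-2 leaves, against 263, 288 and 263 CPM in Columbia-0 leaves (log2 -0.19 ± 0.06, adjusted p = 0.0337). It lost the call without any of opt3-2 leaf replicates 1 to 3 or without Columbia-0 leaf replicate 2 (adjusted p = 0.0506 to 0.0816), and in the first and the middle run alone (adjusted p = 0.0726 and 0.0739). GLK1 had 338, 365 and 362 CPM in opt3-2 leaves, against 339, 333 and 332 CPM in Columbia-0 leaves, and the groups overlapped.

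In roots, the photosynthetic genes were expressed at low levels and varied widely among replicates, and 2 of the 50, both photosystem I subunits, were called higher in opt3-2 (8.28% of all tested genes were). None was called lower (7.28% of all tested genes were), and 5 of the 50 had an unadjusted p under 0.05 (29.5% of all tested genes had). PSAD2 (AT1G03130), a stromal subunit that docks ferredoxin, had 6.55, 4.495 and 4.05 CPM in opt3-2 roots, against 3.27, 2.94 and 4.02 CPM in Columbia-0 roots (log2 0.57 ± 0.17, adjusted p = 0.0400). PSAN had 17.5, 12.6 and 12.1 CPM in opt3-2 roots, against 10.3, 9.37 and 11.5 CPM in Columbia-0 roots (log2 0.44 ± 0.14, adjusted p = 0.0461). Each rested on 110 reads or more per library, and the groups did not overlap, though the gap was narrow for PSAD2. These were the only 2 of the 50 with all opt3-2 root replicates above all Columbia-0 root replicates (15.0% of all tested genes were), and none had all of them below (16.5%). With the replicate number as a block, neither passed (PSAD2 log2 0.56, adjusted p = 0.0544, PSAN log2 0.43, adjusted p = 0.0558), and none passed in the fit to roots alone (adjusted p = 0.168 and 0.147), where 5.55% of 20428 tested genes were called higher and 4.11% lower.

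The root values depended on single libraries. opt3-2 root replicate 1 was the highest of its group for 48 of the 50 genes, and Columbia-0 root replicate 2 was the lowest of its group for 46. The 50 genes summed to 1226, 804 and 653 CPM in opt3-2 roots, against 861, 603 and 823 CPM in Columbia-0 roots, and the groups overlapped. LHCB1.3, for example, had 147, 60.01 and 45.8 CPM in opt3-2 roots, against 101, 41.2 and 60.6 CPM in Columbia-0 roots. Fold changes in roots were positive for 40 and negative for 10, with a median of 0.19, against 0.00 over all genes. Without opt3-2 root replicate 1 that median was -0.11 and 0 of the 50 were called. Without opt3-2 root replicate 3 it was 0.39 and 11 were called higher, and without Columbia-0 root replicate 2 it was 0.06 and 0 were called. Leaving out Columbia-0 root replicate 1 or any single leaf library also left 0 called, while PSAN alone of the pair remained without opt3-2 root replicate 2 and PSAD2 alone without Columbia-0 root replicate 3.

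**Figure D3:**
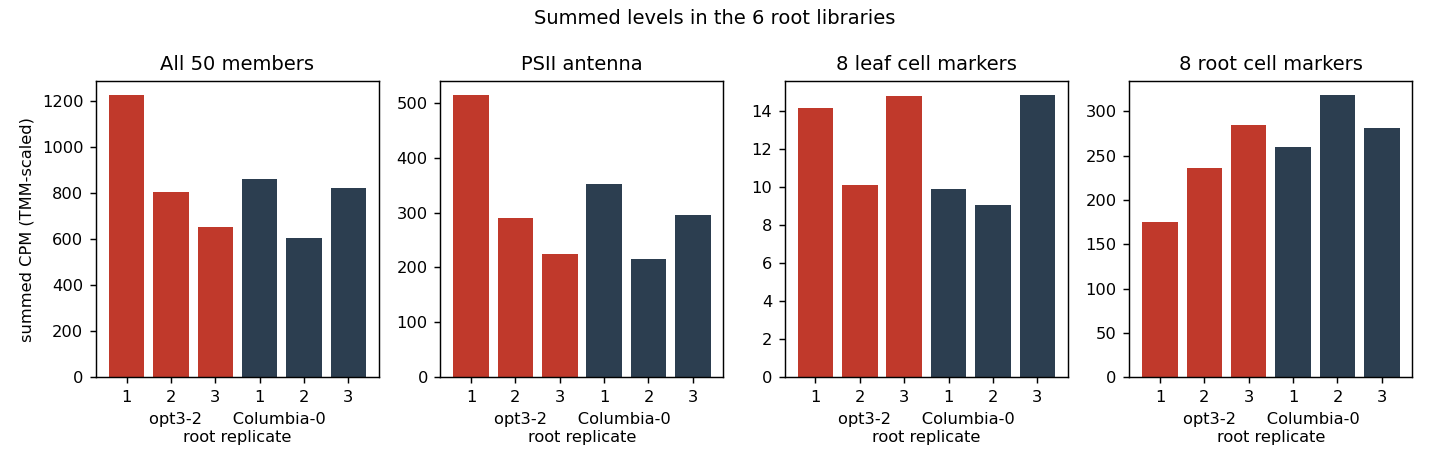
Summed CPM in each of the 6 root libraries, opt3-2 in red left of Columbia-0 in dark blue, for the 50 genes, the 14 photosystem II antenna genes, the 8 leaf cell markers and the 8 root cell markers. opt3-2 root replicate 1 was highest for the photosynthetic genes and lowest for the root markers. The leaf marker sum, to which CA1 contributed most, did not follow the same order.

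The 8 leaf cell markers summed to 14.2, 10.14 and 14.8 CPM in opt3-2 roots, against 9.92, 9.07 and 14.9 CPM in Columbia-0 roots. In opt3-2, root replicate 3, with the least of the photosynthetic genes in its group, had the highest sum of these markers. The marker CA1 contributed most, with 7.66, 6.97 and 11.25 CPM in opt3-2 roots and 6.13, 7.2 and 11.9 CPM in Columbia-0 roots. TGG1 had 3.93, 1.32 and 1.33 CPM in opt3-2 roots, and TGG2 had 2.06, 1.09 and 1.14 CPM. Both were highest in replicate 1 in each genotype, as were the summed photosynthetic genes. In opt3-2 roots, MYB60, FAMA, SLAC1 and EPFL9 were highest in replicate 3 and KAT1 in replicate 2. None of the 8 was at 0 in either root group as a whole, although SLAC1, a guard cell anion channel, was at 0 in opt3-2 root replicates 1 and 2 and in Columbia-0 root replicate 3. The 8 root cell markers summed to 176, 236 and 285 CPM in opt3-2 roots, against 260, 318 and 281 CPM in Columbia-0 roots, so that opt3-2 root replicate 1 had the fewest. The part of green tissue or of root cell composition in the root values was not tested.

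Of the other photosynthesis genes, 2 of 6 relatives were called higher in opt3-2 roots. In roots, 8.28% of all tested genes were called higher and 7.28% lower. LHCA5, a linker of photosystem I to the NDH complex, had 2.52, 3.31 and 3.06 CPM in opt3-2 roots, against 2.11, 2.14 and 1.80 CPM in Columbia-0 roots (log2 0.54 ± 0.10, adjusted p = 0.00473). That call was lost in the fit to roots alone (adjusted p = 0.088), in the first run of each replicate (log2 0.39, adjusted p = 0.272) and in the middle run (log2 0.35, adjusted p = 0.352). LHCB7, a rare antenna protein, had 9.64, 7.93 and 12.02 CPM in opt3-2 roots, against 4.92, 4.93 and 6.18 CPM in Columbia-0 roots (log2 0.89 ± 0.15, adjusted p = 0.00257). Neither gene's groups overlapped, and opt3-2 root replicate 1 was not the highest for LHCA5 or LHCB7. Of the 16 Calvin cycle genes, PDTPI, the plastid triose phosphate isomerase, was called higher at 140, 141 and 140 CPM in opt3-2 roots, against 99.1, 108 and 105 CPM in Columbia-0 roots (log2 0.43 ± 0.06, adjusted p = 4.88e-04). TKL1, a transketolase shared with the pentose phosphate pathway, was called lower at 301, 336 and 340 CPM in opt3-2 roots, against 424, 390 and 422 CPM in Columbia-0 roots (log2 -0.34 ± 0.09, adjusted p = 0.0290). The TKL1 call was lost without any of opt3-2 leaf replicates 1 to 3, Columbia-0 leaf replicate 2, opt3-2 root replicates 1 and 2 or Columbia-0 root replicates 1 and 3 (adjusted p = 0.0502 to 0.0913), and in the middle run alone (adjusted p = 0.0848). None of the 5 ATP synthase and cyclic electron flow genes and neither GLK gene was called in roots.

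The difference between the leaf effect and the root effect of opt3-2 was tested as an interaction. It was negative for 45 of the 50 genes, with a median of -0.39 against 0.00 over all genes. It was called lower for 2 genes (7.69% of all tested genes were) and higher for none (8.45% of all tested genes were), and 14 of the 50 had an unadjusted p under 0.05 (30.2% of all tested genes had), a share near that of all genes. PSAN had -0.65 ± 0.18 (adjusted p = 0.0330), made of -0.21 in leaves and 0.44 in roots. PETE2 had -0.74 ± 0.21 (adjusted p = 0.0428), made of -0.40 in leaves and 0.34 in roots, where it ranged from 9.18 to 12.97 CPM in opt3-2 and from 7.04 to 9.68 CPM in Columbia-0. With the replicate number as a block 4 were called lower, LHCB2.3, PETE2, PSAE2 and PSAN. The count ran between 0 and 12 when 1 library was left out, with 12 without opt3-2 root replicate 3, 4 without Columbia-0 root replicate 3, 1 without opt3-2 root replicate 1, and 0 without replicate 1 or 2 of Columbia-0 root, any opt3-2 leaf replicate or Columbia-0 leaf replicate 1 or 2. The leaf rise of LHCB4.3 was not called as different from its root value (difference 1.22 ± 0.43, adjusted p = 0.0785), and its root libraries held 14 to 25 reads each. Without Columbia-0 leaf replicate 1 that difference was called.

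All 50 genes were higher in leaf than in root, in opt3-2 (38.4% of all tested genes were higher and 40.4% lower) and in Columbia-0 (36.2% were higher and 41.2% lower). The log2 difference ran from 5.95 (PETC) to 9.99 (RBCS1B) in opt3-2, with a median of 7.98, and from 4.84 (LHCB4.3) to 9.92 (RBCS1B) in Columbia-0, with a median of 8.42. The summed level of the 50 genes was 207 times higher in leaf than in root in opt3-2 and 285 times higher in Columbia-0. The comparisons of the organs share libraries with those of the genotypes. LHCB4.3, PETC and FNR1 had the smallest differences in Columbia-0, at 4.84 ± 0.28, 6.34 ± 0.14 and 6.42 ± 0.13. PETC had 19.8, 14.3 and 16.4 CPM in opt3-2 roots, against 13.6, 12.4 and 14.9 CPM in Columbia-0 roots, and leaf levels of 1034 to 1152 CPM over both genotypes. FNR1 had 12.2, 9.99 and 10.7 CPM in opt3-2 roots, against 10.6, 9.72 and 12.8 CPM in Columbia-0 roots. LHCB4.3 had 0.623, 0.450 and 0.772 CPM in opt3-2 roots, against 0.463, 0.642 and 0.643 CPM in Columbia-0 roots, so its low organ difference in Columbia-0 came with low levels in both organs.

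**Figure D4:**
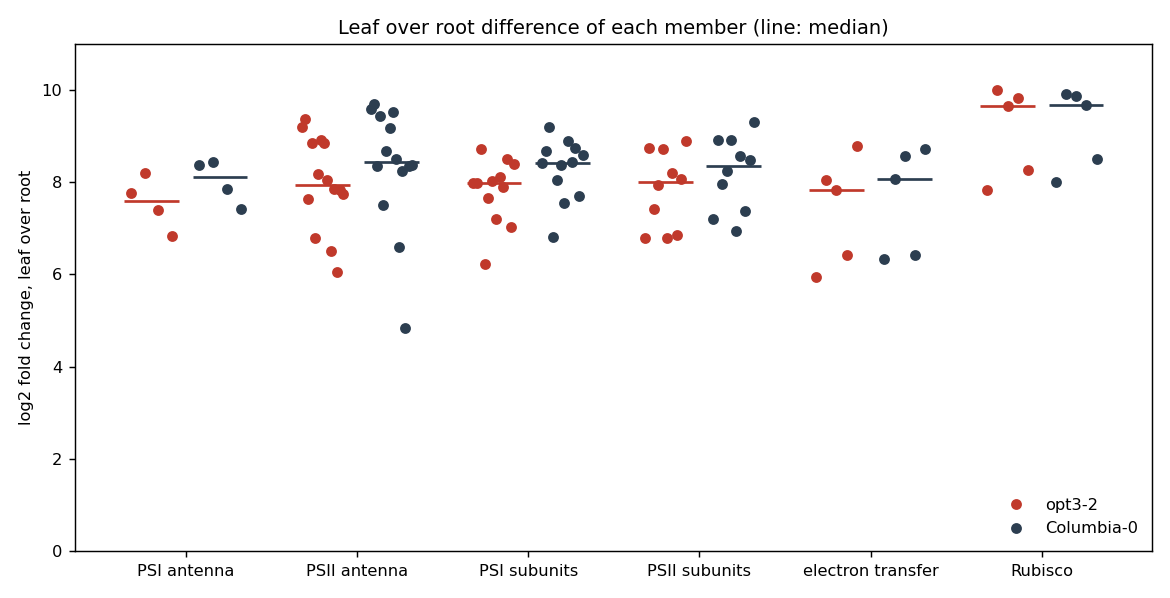
Log2 fold change of leaf over root for each gene, by complex, opt3-2 (red) left of Columbia-0 (dark blue), with lines at the medians. Every gene lies above 4.8, the Rubisco small subunit genes of the B type are at or near the top, with LHCB1.2 (9.70) above RBCS3B in Columbia-0, and LHCB4.3 is the low point of the photosystem II antenna in both genotypes.

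The RBCS genes of the B type were among the genes with the largest organ differences. In opt3-2 they were the highest of the 50, and in Columbia-0 LHCB1.2, at 9.70, lay between RBCS2B and RBCS3B. RBCS1B, RBCS2B and RBCS3B lay at 9.99, 9.66 and 9.82 in opt3-2 and at 9.92, 9.86 and 9.67 in Columbia-0, whereas RBCS1A had 7.83 in opt3-2 and 8.00 in Columbia-0. The B genes stand in a row on chromosome 5 (RBCS3B chr5:15376988-15378642, RBCS2B chr5:15380907-15382071 and RBCS1B chr5:15383167-15385320, all on the - strand), while RBCS1A is at chr1:25048158-25049667. Aligned coding stretches of 60 bases, 5′ to 3′ from the same annotation, carry capitals where they differ from RBCS1A.
RBCS1A: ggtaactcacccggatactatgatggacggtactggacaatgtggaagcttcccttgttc
RBCS1B: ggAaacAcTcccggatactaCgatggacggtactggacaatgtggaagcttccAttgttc
RBCS2B: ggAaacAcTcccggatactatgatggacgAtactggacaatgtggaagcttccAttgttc
RBCS3B: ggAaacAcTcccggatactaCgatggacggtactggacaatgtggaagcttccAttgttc
The B genes shared 96.7 to 97.3% of coding bases with each other and 90.4 to 90.6% with RBCS1A. Between 13.98% and 21.4% of their 50-base exon windows occurred in another RBCS gene, against 1.48% for RBCS1A, so counts among the B genes may be split, and RBCS1A is better resolved.

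Gene families differed between the organs in which copy supplied the reads. Shares of a family's reads were computed in 11 families with 29 of the genes, and in a family of 2 genes either share fixes the other. A share within a library is independent of the scaling between libraries. PSAE1 gave 79.1 to 81.7% of PSAE reads in leaves and 36.1 to 50.2% in roots, where PSAE2 gave the rest. PSBO1 gave 76.2 to 77.0% of PSBO reads in leaves and 91.2 to 93.2% in roots. FNR1 gave 64.0 to 66.2% of FNR reads in leaves and 88.0 to 94.2% in roots, where FNR2 had 0.610 to 1.74 CPM.

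RBCS1A gave 54.6 to 58.2% of RBCS reads in leaves and 77.6 to 86.8% in roots. LHCB4.1 gave 44.5 to 49.3% of LHCB4 reads in leaves and 67.5 to 73.2% in roots. LHCB1.5 gave 22.4 to 24.6% of LHCB1 reads in leaves and 38.2 to 50.9% in roots, with the reservation about LHCB1 counts above. In all of the families named so far, both genotypes lay on the same side. PSAD1 and PSAD2 kept overlapping shares in both organs, with PSAD1 at 65.6 to 66.3% in leaves and 60.8 to 72.6% in roots.

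**Figure D5:**
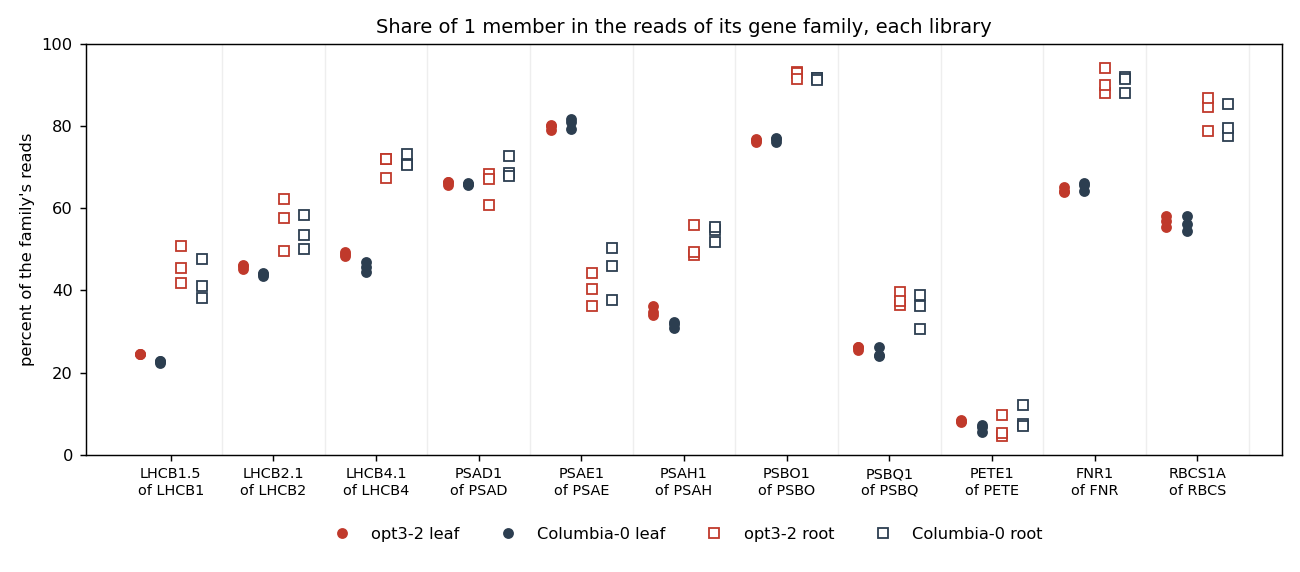
Percent of the reads of a gene family given by 1 of its members in each library, filled circles for leaf and open squares for root, opt3-2 in red and Columbia-0 in dark blue. PSAE1 had a larger share in leaf, LHCB1.5, LHCB2.1, LHCB4.1, PSAH1, PSBO1, PSBQ1, FNR1 and RBCS1A a larger share in root, and PSAD1 and PETE1 overlapped.

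Within leaves 15 of the 29 shares did not overlap between opt3-2 and Columbia-0, and those given with values here were picked after their values were seen. The shares of LHCB1.1, LHCB1.5 and LHCB2.1 were also higher in opt3-2 leaves without overlap. In the PSAD, PSAE, PSBO, PSBQ and FNR families the shares overlapped. LHCB4.1 gave 48.9 ± 0.41% of LHCB4 reads in opt3-2 leaves and 45.7 ± 1.2% in Columbia-0 leaves (SD, n = 3 each). LHCB1.4 gave 6.36 ± 0.13% of LHCB1 reads in opt3-2 leaves and 7.94 ± 0.77% in Columbia-0 leaves. LHCB2.3 gave 13.5 ± 0.23% of LHCB2 reads in opt3-2 leaves and 15.9 ± 0.20% in Columbia-0 leaves. LHCB1.2 likewise gave a smaller share of LHCB1 reads, 10.34 to 10.41% in opt3-2 leaves and 10.52 to 11.87% in Columbia-0 leaves. PSAH1 gave 34.98 ± 1.09% of PSAH reads in opt3-2 leaves and 31.7 ± 0.65% in Columbia-0 leaves. PETE2 gave 91.8 ± 0.27% of plastocyanin reads in opt3-2 leaves and 93.5 ± 0.82% in Columbia-0 leaves, and RBCS2B gave 11.1 ± 0.30% of RBCS reads in opt3-2 leaves and 13.01 ± 0.64% in Columbia-0 leaves. With 3 replicates against 3 a two-sided exact permutation test of a share cannot go below p = 0.1, so none was run. The set of run numbers in the column names differs between the genotypes, although some numbers occur in both. All opt3-2 columns carry the same set. In leaves and in roots alike, Columbia-0 replicate 3 carries another set than the other replicates of its group. No full set was shared by both genotypes, so the set of runs and the genotype cannot be fully told apart. An effect of the set of runs was not tested.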

How the data were processed

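RNA from pools of plants was made into Illumina TruSeq libraries, per the labels' protocols. The submitters' processing notes name TopHat2, edgeR and the build TAIR10, without versions. The sources used here do not give the counting program, annotation release or strand setting. The values the authors deposited are raw counts per gene, unnormalized whole numbers, per the file headers. It has 36 columns that match the samples, matched by name with the letter S read as leaf, and 36 others that were not used. The 3 runs of a replicate were summed, since runs differed by a chi-square of 1.02 to 1.07 per degree of freedom, against 3.33 to 80.1 for replicates.

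Differential expression was tested with edgeR 4.0.16 (R 4.3.3): TMM factors, filterByExpr, glmQLFit and glmQLFTest on a mean per group, with 8 residual degrees of freedom and a common biological coefficient of variation of 0.137. The SE is the absolute log2 fold change over the square root of F. Alternatives used DESeq2 1.42.0, limma voom 3.58.1 and the settings named in the closing section. The test was tried on simulated data first. Levels between genes are per kilobase of merged exons in the RefSeq annotation of TAIR10.1, whose nuclear chromosomes have the TAIR10 lengths. Motifs were searched in the 250 bases upstream of annotated starts.

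Replicates of the same number deviated together in roots (correlation of deviations from group means 0.591, 0.222 and 0.636 over 16649 genes), which was taken as pairing there. For replicate 2 the pairing is doubtful. The correlation of opt3-2 root replicate 2 was higher with Columbia-0 root replicate 1 (0.37) than with replicate 2. The other root pairs of different numbers had -0.656 to 0.0694. Deviations within a group cancel out, so these correlations are not independent. In leaves, replicates of the same number did not deviate together (-0.01, -0.04 and 0.125). The labels do not say what a number marks. The blocked values stand beside the root and interaction results they change.

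Genes given by replicate were, in each complex, the members called in leaves or in the interaction with the smallest adjusted p, or the most abundant where none was called, then those called in roots and the 3 with the smallest organ difference. LHCB1.2, relatives within families and other members were added after their values were seen. The members and all lists were chosen with earlier results of these data known. P-values here cover the spread between pools only, and reads carry no molecular identifiers.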

Additional observations from a re-analysis of the deposited data

Results flagged for a closer look

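By the interaction test, the effect of opt3-2 in leaves differed from that in roots for 2 of the 50 genes. It also differed for 5 genes of the related lists. These lists hold 6 relatives, 5 genes of ATP synthase and cyclic electron flow, 16 Calvin cycle genes and 2 GLK genes. Of all tested genes, 7.69% were called lower in that test and 8.45% higher. The difference, leaf effect minus root effect on the log2 scale, was -0.65 for PSAN and -0.74 for PETE2. PSAN and PETE2 each lost the call under 9 of 22 alternatives. Among these were the middle run of each replicate alone (adjusted p = 0.0579 for PSAN and 0.0876 for PETE2) and, for PSAN, the last run (adjusted p = 0.0552). Of the relatives, LHCA5 had -0.73 (adjusted p = 0.00347), from -0.18 in leaves and 0.54 in roots, and LHCB7 had -1.08 (adjusted p = 0.00539), from -0.19 in leaves and 0.89 in roots. PDTPI had -0.57 (adjusted p = 9.04e-04), from -0.14 in leaves and 0.43 in roots. GLK2 had -0.39 (adjusted p = 0.0116), from -0.19 in leaves and 0.20 in roots. PGRL1B, a protein of cyclic electron flow, had 0.33 (adjusted p = 0.0434), from 0.13 in leaves and -0.19 in roots, where it ranged from 13.9 to 14.7 CPM in opt3-2 and from 15.1 to 18.1 CPM in Columbia-0. The PGRL1B call was lost under 18 alternatives, among them the replicate block (log2 0.32, adjusted p = 0.0515), GLK2 lost it in the first run of each replicate alone (adjusted p = 0.117), and LHCA5 in the first run (adjusted p = 0.0827) and the middle run (adjusted p = 0.0808). LHCB7 and PDTPI kept theirs under all 22 alternatives.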

How the results depend on the processing

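Across 23 alternatives, LHCB4.3, LHCB2.3 and LHCB1.4 kept direction and call in leaves, and all 50 genes stayed higher in leaf than in root in both genotypes under each alternative run for that comparison. No result changed sign past the threshold. Members called lower in leaves numbered 28 in the fit per tissue, and 2 to 5 when 1 library was left out, with 5 without opt3-2 root replicate 1 or 3; those called higher stayed at 1. Members called higher in roots (2 in the main test) numbered 5 by DESeq2, 1 by limma voom, 0 with upper-quartile factors, 0 with the replicate block, 0 in the fit per tissue, 0 in the last run of each replicate, and 0 to 11 when 1 library was left out. For the interaction, 2 were called lower in the main test, against 12 by DESeq2, 5 by limma voom, 4 with RLE factors, 4 without the filter, 4 with the replicate block and 0 to 12 without 1 library; those higher were 0, against 1 by DESeq2 and 0 to 1 without 1 library. In the related lists, 2 were lower in leaves, against 8 by DESeq2 and 6 by limma voom, 3 were higher in roots, against 6 by DESeq2, and in the interaction DESeq2 called 8 lower and 0 higher, against 4 and 1. Counts without overlap were also made under other scalings, an alternative added after seeing the data: all opt3-2 replicates stood above Columbia-0 for 1 gene in leaves with RLE or upper-quartile factors, and for 1 gene with upper-quartile factors and 0 in plain CPM in roots. The summed photosystem I antenna in leaves was -0.25 (log2) with RLE factors, against -0.21. The replicate block changed no other call of the genes named in leaves. The counts over all genes also moved. In roots, 1797 of 21692 genes were called higher in the main test, 2159 by DESeq2, 1899 by limma voom and 1964 with the replicate block. In the fit per tissue, 1134 of 20428 were. In the interaction, 1669 of 21692 were called lower in the main test, 2386 by DESeq2, 1474 by limma voom and 1932 with the replicate block. Without opt3-2 root replicate 3, 2180 of 21869 were higher in roots and 2127 lower in the interaction. Causes of these shifts were not tested. The 50 genes varied more among replicates in roots than in leaves, and how far this limited detection in roots was not tested.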
